A study of Homo sapiens with 4 samples.

Results

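The collagen genes were examined in LN229, an established line of human glioblastoma cells, with and without knockdown of *SOX2*. A gene was counted as a collagen gene where a gene probe of the array carried a symbol of the form COL, a number, A and a number, and 39 genes with 54 probes were examined of the 20481 gene symbols of the array, with 1 further symbol of that form set aside. *SOX2* encodes an HMG-box transcription factor of stem cells. The series holds 4 arrays of total RNA, 2 of mock knockdown cells, transfected with an siRNA without a target, and 2 of Sox2 knockdown cells, transfected with siRNA against *SOX2*. An siRNA is a small RNA duplex by which a cell degrades transcripts of matching sequence. Which of the siRNAs against *SOX2* was used is not given by the labels, and cells of both groups were grown in DMEM. The study describes the replicates as separate transfections, so each group is 1 established line sampled in 2 transfections and the p-values measure the spread between those.

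Collagens are trimeric proteins of the extracellular matrix whose chains wind around each other in a triple helix. Fibrillar collagens form the banded fibrils of connective tissue, and FACIT collagens sit on the surface of such fibrils. Type IV collagen forms the network at the core of basement membranes, the sheets that in brain surround the vessels and line the surface. Multiplexins are proteoglycans of the basement membrane zone. Type VI collagen forms beaded filaments, type VII anchoring fibrils, and types VIII and X short-chain networks. Transmembrane collagens span the cell membrane.

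The 6 type IV genes lie in 3 pairs, and the genes of a pair are read in opposite directions from neighbouring start sites. RefSeq (GRCh38.p14) places 126 bases between the start sites of *COL4A1* and *COL4A2*, 418 between those of *COL4A3* and *COL4A4*, and 379 between those of *COL4A5* and *COL4A6*. The stretches next to the start sites of the 4 genes that passed a 2-fold cutoff are shown because those genes carry the main result below. Each is printed 5′ to 3′ on the plus strand of GRCh38.p14 from RefSeq. Capitals mark every match, on either strand, to CCAAT, the box bound by NF-Y, to GGGCGG, a GC box, and to ATTGT or CTTTGT, cores of motifs read by SOX proteins. The 4 motifs do not overlap in these stretches.
Between *COL4A1* and *COL4A2* (chr13:110307158-110307283): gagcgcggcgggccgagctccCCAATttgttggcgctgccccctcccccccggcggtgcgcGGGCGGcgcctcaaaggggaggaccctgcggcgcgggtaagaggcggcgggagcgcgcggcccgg
Before *COL4A5* (chrX:108439588-108439837): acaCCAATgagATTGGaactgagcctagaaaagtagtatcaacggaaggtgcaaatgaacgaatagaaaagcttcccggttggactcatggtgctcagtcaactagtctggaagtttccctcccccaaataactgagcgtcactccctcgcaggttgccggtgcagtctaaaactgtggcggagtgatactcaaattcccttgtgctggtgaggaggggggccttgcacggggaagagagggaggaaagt
Before *COL15A1* (chr9:98943657-98943906): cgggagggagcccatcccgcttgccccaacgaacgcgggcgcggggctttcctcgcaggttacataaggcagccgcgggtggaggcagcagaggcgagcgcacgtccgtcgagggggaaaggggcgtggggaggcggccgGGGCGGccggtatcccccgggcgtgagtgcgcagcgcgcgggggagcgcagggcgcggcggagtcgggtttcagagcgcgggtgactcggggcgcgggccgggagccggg
The *COL4A1* and *COL4A2* stretch holds 1 CCAAT and 1 GGGCGG, the *COL4A5* stretch 2 matches to CCAAT, and the *COL15A1* stretch 1 GGGCGG. Neither SOX core was found in any of these 3 windows, which says only that those letters are not there. Taking the first start listed for each gene, in the 250 bases before the start of all 27305 promoters of the table, CCAAT was found in 33.0%, GGGCGG in 42.3%, ATTGT in 25.3% and CTTTGT in 13.7%. In 126 bases the shares were 21.9%, 34.6%, 13.6% and 6.96%. The table held a promoter for 28 of the 39 collagen genes. In their 250 bases CCAAT was found in 8, GGGCGG in 16, ATTGT in 1 and CTTTGT in 3.

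All signals are given as scaled signals, the normalized signal of a feature (the probes of 1 gene ID, averaged) divided by the 75th percentile of its array. Between 63.5% and 68.9% of the probes of an array exceeded 3 in S/N, the ratio of signal to noise. The *SOX2* probe gave 0.454 and 0.682 in mock cells and 0.204 and 0.145 in knockdown cells, a ratio of 0.308. The arrays carry a conflict in their labels, since the treatment text names SW620, a colon cancer line, where all other fields name LN229. Of 10 colon epithelial markers 5 passed the S/N filter given below, none past 2-fold and none with an unadjusted p under 0.05. These were *KRT18*, at 5.36 and 5.47 on the mock arrays, *CDX2*, *VIL1* and *LGALS4*, at up to 0.0642 there, and *CDH1*. Of the 5 not kept, *KRT20* and *CDH17* had S/N over 3 on no array, *EPCAM* and *CEACAM5* on 1 array each and *CDX1* on 2. The identity of the line was not tested. The *CDH1* feature is shared with a ribosomal protein gene and is no measure of *CDH1* alone. Of 8 glioma line markers 7 passed the filter, and *SOX9* had S/N over 3 on no array. The mesenchymal and glioma marker *VIM* gave 50.1 and 57.5 on the mock arrays. *GFAP*, the filament of astrocytes, had a mean of 0.132 ± 0.0453 (SD, n = 2) there.

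Collagen transcripts of every class were detected in mock knockdown cells. A feature was kept if in at least 1 group each array had S/N over 3, and 28 of the 39 collagen genes were kept, 26 of them with S/N over 3 on all 4 arrays. Kept were 9 of 11 fibrillar, 4 of 6 type IV, 2 of 3 short-chain, 5 of 9 FACIT, 2 of 2 multiplexin and 2 of 4 transmembrane genes, with all 3 type VI genes and *COL7A1*, the type VII gene. The signals of different probes cannot be ranked as transcript levels, so each gene is compared only with itself.

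The 11 genes not kept were *COL1A2* and *COL3A1* among the fibrillar genes, *COL4A3* and *COL4A4*, the short-chain *COL10A1*, the FACIT genes *COL14A1*, *COL19A1*, *COL20A1* and *COL21A1*, and the transmembrane *COL17A1* and *COL25A1*. Of these, 5 had S/N over 3 on no array. Their scaled signals on the mock arrays ran from 0.01, the floor set for all values, to 0.111. *COL1A1* and *COL1A2* encode the chains of type I collagen. *COL1A1* was kept, at 0.345 and 0.400 on the mock arrays, whereas *COL1A2* had an S/N of 2.76 and 1.36 there. The *COL1A1* feature averages 3 probes, of which 1 had S/N over 3 on all 4 arrays, at 0.939 and 1.12.

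**Figure D1:**
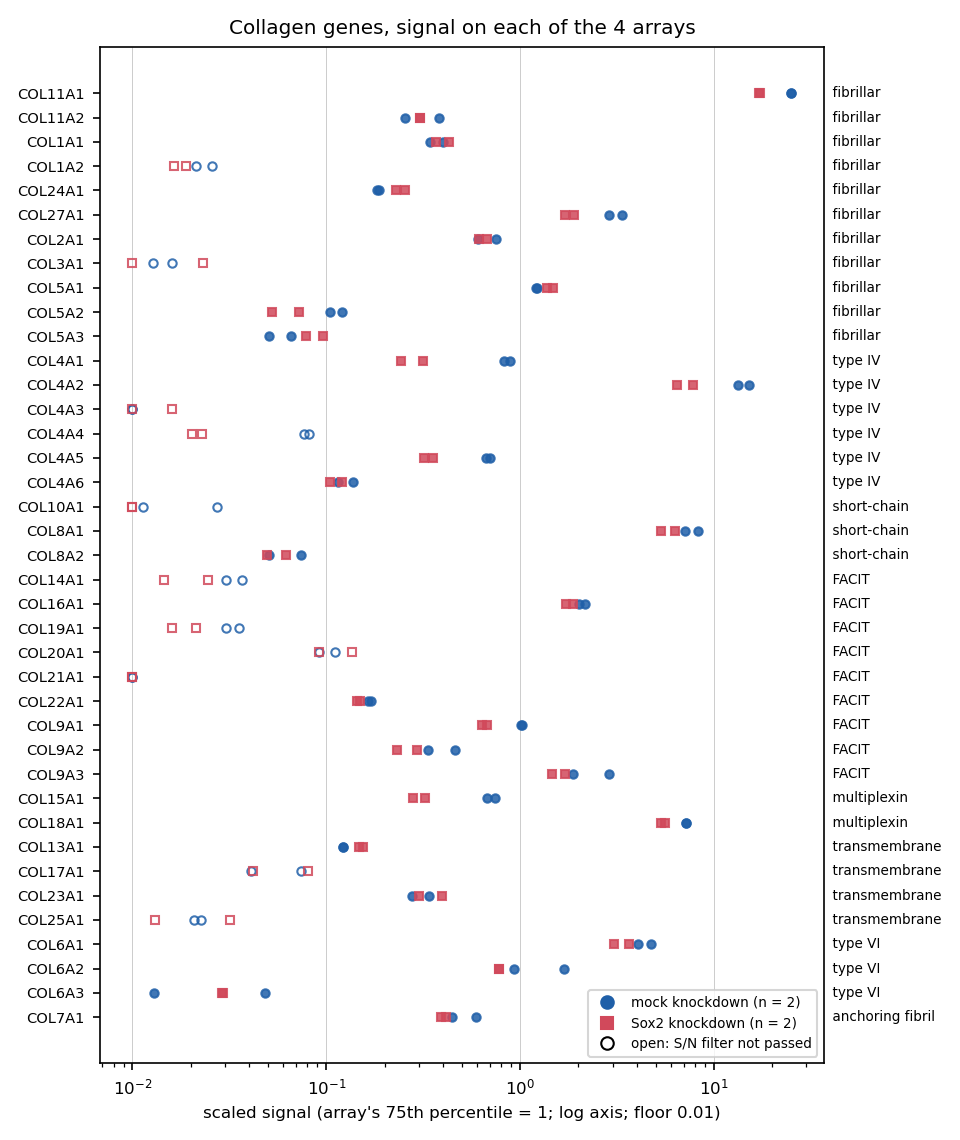
Scaled signal (75th percentile of the array = 1, log axis) of the 39 collagen genes on each array, with circles for the 2 mock knockdown arrays and squares for the 2 Sox2 knockdown arrays. Open symbols are the 11 genes that did not pass the S/N filter. *COL4A1*, *COL4A2*, *COL4A5* and *COL15A1* show circles well to the right of squares.

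After *SOX2* knockdown, 4 of the 28 collagen genes kept were at least 2-fold lower by their replicate means, the type IV genes *COL4A1*, *COL4A2* and *COL4A5* and the multiplexin *COL15A1*. None was 2-fold higher. *COL15A1* passed the S/N filter only through its mock arrays, where it was higher, and with S/N over 3 asked of all arrays the count was 3. Over all 18378 features kept, 0.909% were 2-fold lower and 1.47% 2-fold higher. At an unadjusted p under 0.05 (limma), 9 collagen genes were lower and 2 higher, where the shares over all features were 9.07% and 8.12%. No collagen gene passed an adjusted p of 0.05, and 0% of all features did. *COL4A1* and *COL15A1* had an adjusted p under 0.1, as did 0.903% of all features. The median log2 change was -0.37 over the 28 collagen genes and 0.0018 over all features. The log2 change was below 0 in 21 collagen genes, 75% of those kept, and in 49.7% of all features.

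The knockdown arrays both lay below the mock arrays in 17 of the 28 collagen genes and above them in 4, and in 7 the groups overlapped. Over all features these shares were 25.7% below and 21.6% above. In bulk RNA, fewer cells of a kind and less RNA per cell cannot be told apart. With normexp background correction of the raw signal none of the 4 genes was 2-fold lower, at log2 changes of -0.98 for *COL4A1*, -0.87 for *COL4A5* and *COL4A2* and -0.72 for *COL15A1*. The adjusted p turned on how the arrays were scaled. With the arrays scaled to their median, left without further scaling, or taken as the values the authors processed, *COL4A1*, *COL4A2*, *COL4A5*, *COL15A1* and *COL5A2* passed an adjusted p of 0.05, as did 669, 650 and 639 of all features. In those 3 fits limma gave every feature the same spread, whereas with the 75th percentile its prior carried 2.41 degrees of freedom. A spread that follows the signal level (eBayes trend) gave 4 collagen genes, without *COL5A2*.

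**Figure D2:**
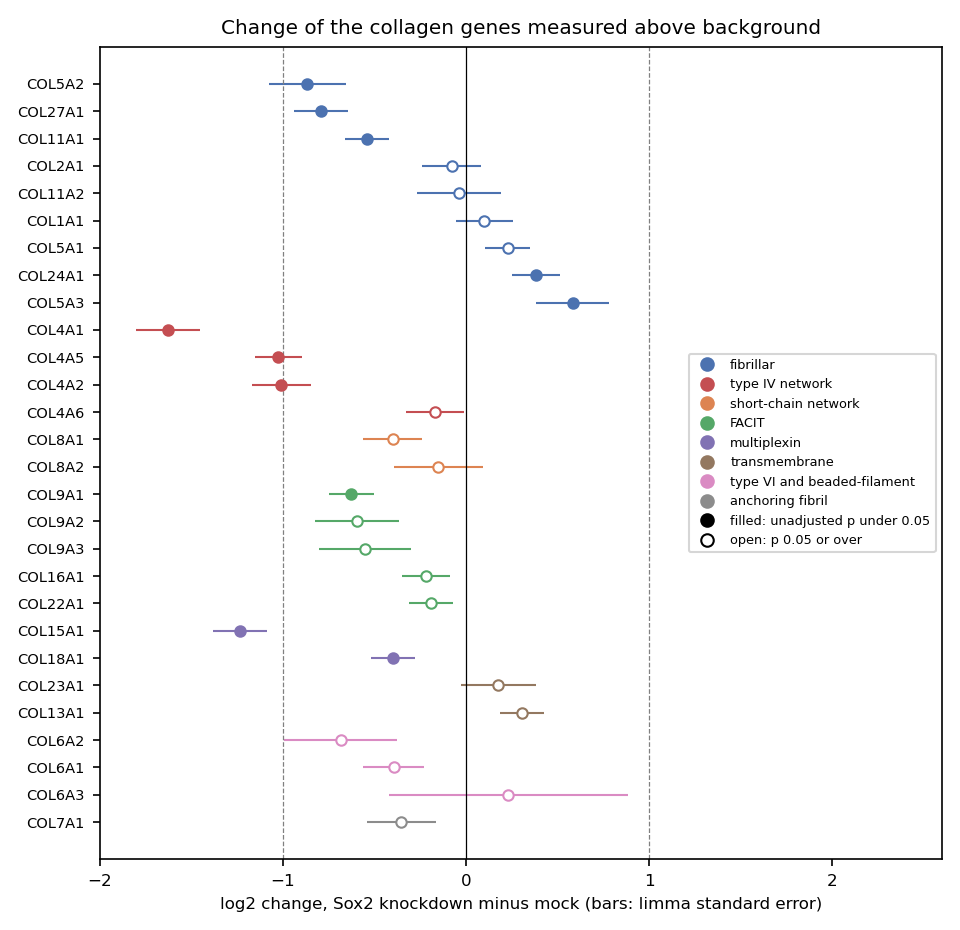
Log2 change of the 28 collagen genes kept, Sox2 knockdown minus mock knockdown, with the limma standard error as bars and colours for classes. Filled points have an unadjusted p under 0.05 and dashed lines mark 2-fold. *COL4A1*, at -1.63, lies farthest left, and *COL5A3*, at 0.58, farthest right.

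Type IV network genes had a median log2 change of -1.02, with 3 of the 4 genes kept at least 2-fold lower (0.909% over all features). *COL4A1* and *COL4A2* encode the chains of the type IV trimer found in nearly all basement membranes. *COL4A1* (gene ID hCG33041.2, 1 probe) gave 0.823 and 0.888 in mock cells and 0.315 and 0.243 in knockdown cells. The groups did not overlap, with a mean of 0.856 ± 0.0458 (SD, n = 2) against 0.279 ± 0.0509 (SD, n = 2), a ratio of 0.327. The log2 change was -1.63 (SE 0.18) with an adjusted p of 0.086 (limma, two-sided, Benjamini-Hochberg adjustment across the 18378 features), and from 1.1e-06 to 0.52 over the alternatives.

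*COL4A2* (hCG33042.2, 1 probe), the divergent neighbour of *COL4A1*, gave 13.3 and 15.2 in mock cells and 7.78 and 6.45 in knockdown cells. Both knockdown arrays were again below both mock arrays, at a ratio of 0.499 that lies just inside the cutoff. The log2 change was -1.01 (SE 0.16) with a limma adjusted p of 0.112. With quantile normalization or the assay-normalized signal *COL4A2* was no longer 2-fold lower.

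*COL4A5* and *COL4A6* encode chains of the type IV trimers of kidney, skin and smooth muscle basement membranes. *COL4A5* (hCG21685.4, 1 probe) gave 0.700 and 0.670 in mock cells and 0.355 and 0.320 in knockdown cells, a ratio of 0.492 without overlap. Its log2 change was -1.02 (SE 0.13) with a limma adjusted p of 0.101. A second gene ID annotated to *COL4A5* (hCG1998478.1, 2 probes without a transcript accession) gave 0.0947 and 0.0580 in mock cells and 0.0622 and 0.0833 in knockdown cells. Its groups overlapped, at a ratio of 0.953, so the probes of *COL4A5* disagree.

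*COL4A6*, the divergent neighbour of *COL4A5*, gave 0.116 and 0.137 in mock cells and 0.120 and 0.105 in knockdown cells. Its groups overlapped, with a log2 change of -0.17 (SE 0.16). The difference between the changes of *COL4A5* and *COL4A6* was not tested. With normexp background correction the *COL4A6* change was 0.76.

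*COL4A3* and *COL4A4* encode chains of the basement membranes of kidney, lung and inner ear, and neither was kept. *COL4A3* had S/N over 3 on no array. *COL4A4* gave 0.0819 and 0.0764 in mock cells and 0.0203 and 0.0229 in knockdown cells, a ratio of 0.273 without overlap. Its S/N was 6.72 and 2.39 in mock cells and 1.18 and 4.15 in knockdown cells, so each group had 1 array at or under 3. With a filter on the mean S/N of a group it was kept and became the fifth collagen gene past the 2-fold cutoff.

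**Figure D3:**
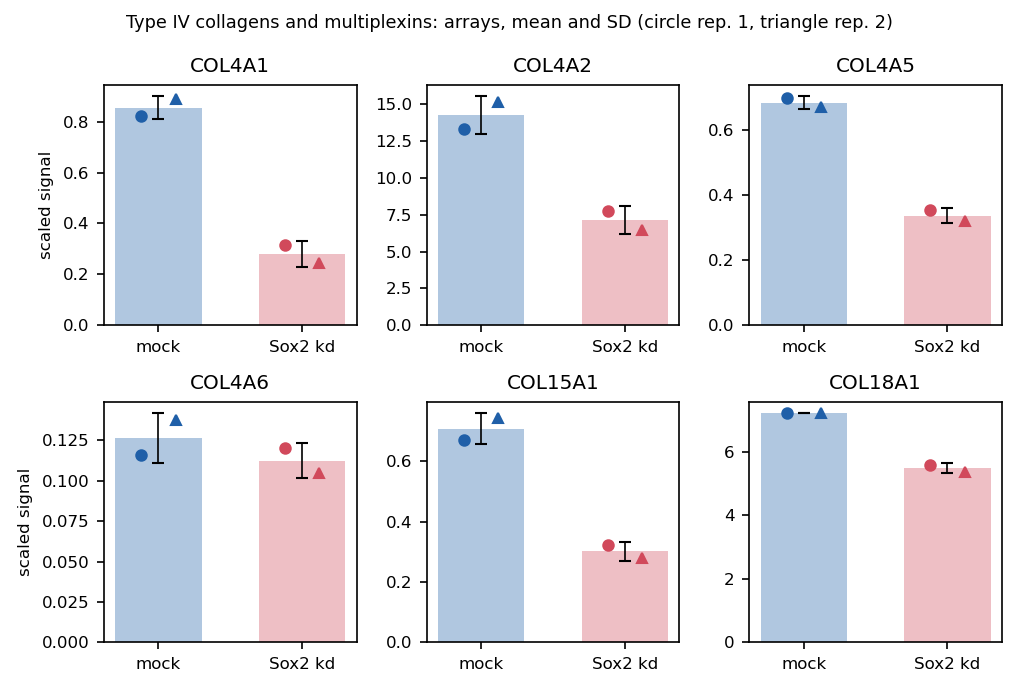
Scaled signal of 4 type IV genes and the 2 multiplexins, with bars for group means, whiskers for the SD (n = 2), circles for replicate 1 and triangles for replicate 2 (kd, knockdown). Knockdown arrays lie below mock arrays in every panel but *COL4A6*, where they overlap.

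The multiplexins were both lower. *COL15A1* encodes a proteoglycan that bridges basement membranes to collagen fibrils. It gave 0.671 and 0.744 in mock cells and 0.324 and 0.279 in knockdown cells, with a mean of 0.707 ± 0.0516 (SD, n = 2) against 0.302 ± 0.0316 (SD, n = 2). The ratio was 0.427 and the log2 change -1.23 (SE 0.15), with a limma adjusted p of 0.098. Its S/N was 2.64 on knockdown array 1, so *COL15A1* was kept only through its mock arrays. It was left out where S/N over 3 was asked of all arrays.

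*COL18A1* encodes the chain whose cleaved end is the angiogenesis inhibitor endostatin. It gave 7.21 on both mock arrays and 5.59 and 5.36 on the knockdown arrays. The ratio was 0.759 without overlap and the log2 change -0.40 (SE 0.12), with an unadjusted limma p of 0.0258 and an adjusted p of 0.224.

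FACIT genes had a median log2 change of -0.55 over 5 genes kept. Of these 1, *COL9A1*, was lower at an unadjusted p under 0.05 (9.07% over all features). In all 5 features the knockdown arrays lay below the mock arrays (25.7% over all features). *COL9A1*, *COL9A2* and *COL9A3* encode the chains of type IX collagen, which coats type II fibrils in cartilage. *COL9A1* gave 1.01 and 1.02 in mock cells and 0.674 and 0.639 in knockdown cells, a log2 change of -0.63 (SE 0.12) with an unadjusted limma p of 0.00522 and an adjusted p of 0.132. *COL9A2* gave 0.335 and 0.461 against 0.295 and 0.230, at a log2 change of -0.59 (SE 0.23). *COL9A3* gave 1.87 and 2.87 against 1.70 and 1.47, at -0.55 (SE 0.25). The 3 chains had ratios from 0.649 to 0.668, although the last 2 did not reach an unadjusted p of 0.05. *COL16A1* had a ratio of 0.860, from 2.01 and 2.17 on the mock arrays, with an unadjusted limma p of 0.162. *COL22A1* had a ratio of 0.876, from 0.171 and 0.164, with an unadjusted limma p of 0.187. Its feature averages 4 probes, of which the brightest was lower, at a ratio of 0.768 (log2 change -0.38 in the fit of single probes), while 2 others with S/N over 3 on all arrays overlapped between groups, at 1.02 and 0.916.

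Fibrillar genes went in both directions, with a median log2 change of -0.04 over 9 genes kept, 5 below 0 and 4 above. *COL11A1* and *COL5A2* encode minor chains that are built into the core of fibrils, and *COL27A1* a fibrillar collagen of cartilage. *COL11A1* gave 25.1 and 24.9 in mock cells and 17.1 and 17.2 in knockdown cells. Its replicates lay close together and its log2 change was -0.54 (SE 0.12), with an unadjusted limma p of 0.00836 and an adjusted p of 0.152.

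*COL5A2* gave 0.104 and 0.120 in mock cells and 0.0724 and 0.0523 in knockdown cells, a log2 change of -0.86 (SE 0.21) with an unadjusted limma p of 0.0118 and an adjusted p of 0.168. With normexp background correction the *COL5A2* change was -0.52. *COL27A1* gave 2.89 and 3.34 against 1.89 and 1.71, a log2 change of -0.79 (SE 0.15) with an unadjusted limma p of 0.00442 and an adjusted p of 0.127. The *COL27A1* feature averages 1 bright probe, at a ratio of 0.575, with 1 probe of S/N under 3 on all arrays. Neither reached 2-fold.

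The other chains of type V collagen were higher where *COL5A2* was lower. *COL5A3* gave 0.0658 and 0.0509 in mock cells and 0.0781 and 0.0964 in knockdown cells, a log2 change of 0.58 (SE 0.20) with an unadjusted limma p of 0.0384 and an adjusted p of 0.26. *COL5A1* gave 1.21 and 1.22 against 1.48 and 1.37, a log2 change of 0.23 (SE 0.12) with an unadjusted limma p of 0.132. In both genes the knockdown arrays lay above the mock arrays. With normexp background correction the *COL5A3* change was 0.065.

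*COL24A1*, a fibrillar collagen of bone, gave 0.188 and 0.183 in mock cells and 0.256 and 0.229 in knockdown cells. Its log2 change was 0.39 (SE 0.13), with an unadjusted limma p of 0.0375 and an adjusted p of 0.258, and with normexp it was 0.059. The feature averages 3 probes that disagree. The brightest had a ratio of 1.43, a second was lower without overlap at 0.606, with S/N over 3 on 3 arrays, and the last had S/N over 3 on no array. *COL1A1*, *COL2A1*, the cartilage collagen, and *COL11A2* overlapped between groups, at ratios of 1.07, 0.943 and 0.954. *COL2A1* gave 0.753 and 0.610 and *COL11A2* 0.255 and 0.382 on the mock arrays. A second gene ID annotated to *COL11A2*, which averages its probe with an unnamed one, had a ratio of 0.700 without overlap. The *COL11A2* probe of that gene ID, taken alone, overlapped between groups at a ratio of 0.835.

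Among the other classes no gene had an unadjusted p under 0.05. Type VI chains *COL6A1* and *COL6A2* were lower without overlap, at 4.06 and 4.75 against 3.66 and 3.05 and at 0.934 and 1.68 against 0.779 and 0.783. Their log2 changes were -0.39 (SE 0.17) and -0.68 (SE 0.31). The *COL6A1* probe is annotated to 1 further symbol. *COL6A2* moved with the mock arrays, to -1.10 without mock array 1 and -0.26 without mock array 2.

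*COL6A3* gave 0.0128 and 0.0481 in mock cells and 0.0289 and 0.0294 in knockdown cells, so the 2 knockdown arrays lay between the 2 mock arrays. Its change turned with the mock array left out, at -0.72 without mock array 1 and 1.19 without mock array 2. *COL7A1*, the anchoring fibril gene, gave 0.445 and 0.594 against 0.414 and 0.392, a log2 change of -0.35 (SE 0.19).

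The short-chain *COL8A1*, a collagen of vessel walls, gave 7.06 and 8.27 against 6.30 and 5.33, at a log2 change of -0.40 (SE 0.16) without overlap. Its feature averages a bright probe at a ratio of 0.761 with a dim one at 0.438, both with S/N over 3 on all 4 arrays, and the remaining *COL8A1* probe, which shares its gene ID with another gene, had S/N under 3 on all of them. *COL8A2* overlapped, from 0.0738 and 0.0509 on the mock arrays to 0.0492 and 0.0621. The transmembrane genes were the only class with a median above 0, at 0.24. *COL13A1* gave 0.122 and 0.123 against 0.154 and 0.148, a log2 change of 0.30 (SE 0.12) with an unadjusted limma p of 0.0589. Its 3 probes had ratios of 1.10, 1.59 and 1.06, the last with overlapping groups, and the change was 0.13 in the fit of single probes and 0.057 with normexp. *COL23A1* overlapped, from 0.339 and 0.276 to 0.302 and 0.395.

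The arrays did not contribute equally. In 14 of the 28 collagen genes, 50%, mock array 2 was the highest of the 4 and knockdown array 2 the lowest, an order seen in 17.9% of all features kept. The median log2 difference of mock array 2 from mock array 1 was 0.13 in the collagen genes and 0.024 in all features, and that of knockdown array 2 from knockdown array 1 was -0.09 and -0.01. Comparing arrays of replicate number 1, the log2 change was -1.38 for *COL4A1*, -0.78 for *COL4A2*, -0.98 for *COL4A5* and -1.05 for *COL15A1*. For number 2 it was -1.87, -1.24, -1.07 and -1.41. Without knockdown array 2, only *COL4A1* and *COL15A1* stayed 2-fold lower among the collagen genes, and without knockdown array 1 there were 6. *COL4A5* also missed the cutoff without mock array 1, and *COL4A2* without mock array 2.

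The enzymes and chaperones that build collagen in the secretory pathway were tabulated next. Of 21 listed genes 19 were found and 18 kept. Of those 17 had a log2 change below 0 (49.7% over all features), with a median of -0.34 and none past 2-fold, and 5 were lower at an unadjusted p under 0.05 (9.07% over all features). These were *FKBP10*, *CRTAP*, *LEPREL2*, *PPIB* and *SEC23A*. *FKBP10*, a prolyl isomerase chaperone of procollagen, gave 5.43 and 5.46 in mock cells and 3.81 and 2.23 in knockdown cells, a log2 change of -0.90 (SE 0.29). *CRTAP*, part of the prolyl 3-hydroxylase complex, gave 4.95 and 5.25 against 3.53 and 3.33, at -0.57 (SE 0.13). The groups did not overlap in either. *PLOD3*, a lysyl hydroxylase, was at -0.44 and *LEPREL2*, the prolyl 3-hydroxylase now named *P3H3*, also at -0.44. *P4HA1* and *P4HA2*, alpha subunits of prolyl 4-hydroxylase, overlapped between groups. *P4HB*, the beta subunit, was lower without overlap, at a ratio of 0.789 with an unadjusted limma p of 0.106.

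Of 7 cross-linking enzymes listed 4 were kept, at a median log2 change of -0.54, and 2 were lower at an unadjusted p under 0.05 (9.07% over all features). The dim *LOX* and *LOXL1* were not kept, with S/N over 3 on 1 array and on no array. Both were higher after knockdown without overlap, at ratios of 2.67 and 1.68. *LOXL3*, a lysyl oxidase, gave 23.1 and 27.5 against 14.5 and 13.3, at -0.86 (SE 0.15), and *TGM2*, a transglutaminase, 0.451 and 0.584 against 0.372 and 0.261, at -0.72 (SE 0.24). Their unadjusted limma p was 0.00356 and 0.037. *LOXL2* was at -0.35 and *PXDN*, the peroxidase that cross-links type IV collagen, at -0.20, both above that threshold. Of 8 procollagen proteinases and their enhancers 5 were kept, with a median of -0.43. *ADAMTS3* at -0.54 and *PCOLCE2* at -0.44 were lower at an unadjusted p under 0.05, again against 9.07% of all features. *PCOLCE* was at -0.43 and *BMP1* at -0.41, both above that p.

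The partners of type IV collagen in basement membranes are the laminins, the nidogens and the proteoglycans. Of 16 listed, 10 were kept, 8 with a log2 change below 0 and with a median of -0.40, and 5 were lower at an unadjusted p under 0.05. Over all features these shares were 49.7% and 9.07%. *NID2*, a nidogen that links laminin to type IV collagen, passed the 2-fold cutoff. It gave 0.639 and 0.646 in mock cells and 0.305 and 0.291 in knockdown cells, a ratio of 0.464, with a log2 change of -1.11 (SE 0.12) and a limma adjusted p of 0.086. *LAMA4*, the laminin chain of vessels, gave 28.3 and 28.6 against 15.3 and 13.7, at -0.97 (SE 0.13). *NID1* was at -0.79 (SE 0.21) and *LAMC1* at -0.67 (SE 0.13). The groups overlapped in none of these 4. *LAMB1* was the fifth, while *AGRN* and *LAMC3* had changes above 0 with overlapping groups and *HSPG2*, perlecan, had S/N over 3 on no array.

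Proteins that bind collagen fibrils gave 8 genes kept of 14 listed, 5 lower and 1 higher at an unadjusted p under 0.05 (9.07% and 8.12% over all features), with a median of -0.49. *THBS1*, a thrombospondin, was the higher one, at 1.79 and 1.60 in mock cells and 3.56 and 2.76 in knockdown cells, a log2 change of 0.89 (SE 0.18) with an unadjusted limma p of 0.00597. The small proteoglycans *BGN*, *LUM* and *PRELP* were at -0.68, -0.67 and -0.62. Of 10 listed collagen receptors 9 were kept, none with an unadjusted p under 0.05 and with a median of -0.28. The log2 change was below 0 in 5 of the 9 receptors and above 0 in 4, against 49.7% below 0 over all features. *ITGA2*, *MRC2*, *ITGB1*, *DDR1* and *ITGA11* were at -0.39, -0.35, -0.33, -0.31 and -0.28, all without overlap. Above 0, with overlapping groups, were *DDR2* at 0.12, *GP6* at 0.11, *LAIR1* at 0.054 and *ITGA10* at 0.012. The *LAIR1* feature is shared with *LILRA4* and is no measure of *LAIR1* alone.

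**Figure D4:**
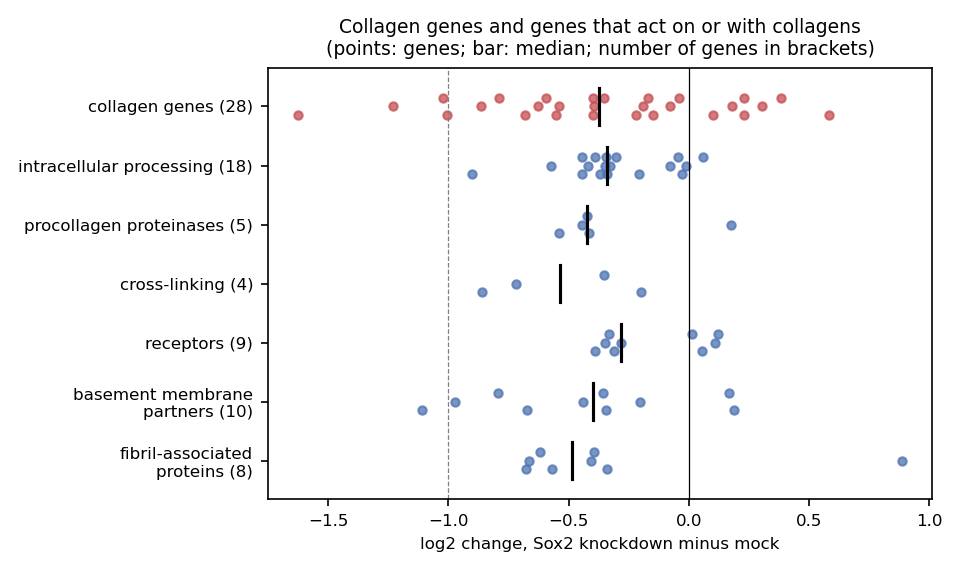
Log2 change (Sox2 knockdown minus mock knockdown) of the genes kept among the collagens and in the 6 lists of collagen-related genes (marker lists not drawn), 1 point per gene, with a bar at the median and the number of genes in brackets. The dashed line marks 2-fold lower. Each median drawn lies left of 0, from -0.54 for cross-linking enzymes to -0.28 for receptors.

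Of 8 fibroblast markers listed, *LUM* among them as in the list before, 7 were found and kept. At an unadjusted p under 0.05, 3 of them were lower and none higher (9.07% and 8.12% over all features). These were *FAP*, *PDGFRA* and *LUM*, the first pair over 2-fold lower (0.909% over all features), while *PDGFRB* and *THY1* had higher means after knockdown. *PDGFRA* was dim, with means of 0.0985 in mock and 0.0334 in knockdown cells. It was kept through its mock arrays, with an S/N of 0.94 on knockdown array 1. The study names *PDGFRA* among up-regulated genes that it checked by RT-PCR, the opposite direction. The summed scaled signal of the 7 ran from 12.3 to 13.0 in mock cells and from 8.26 to 8.49 in knockdown cells, a sum over different probes in which bright ones count most. *FAP* alone had means of 4.19 and 1.89, and *LUM* of 3.95 and 2.49. No marker was absent from all arrays by S/N. Of the glioma line markers *CSPG4* was 2-fold lower (0.909% over all features), and the median log2 change of the 7 kept was 0.0018. The part of these markers in the collagen results was not tested.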

How the data were processed

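RNA of 4 LN229 samples was hybridised to 1-colour Applied Biosystems Human Genome Survey arrays read by chemiluminescence. The deposited scanner files hold a normalized intensity per probe (median near 1), a raw intensity, a standard error as a signal in scanner units, and the S/N, a score per the file headers. The authors also deposited a table of linear ratios, scaled per array and divided by the median of each probe, used as an alternative. Software versions are not given in the sources used here.

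Control features and 210 probes flagged at 5000 or above were left out. Linear signals of probes sharing a Celera gene ID were averaged (27739 features, 3987 of several probes), and each array was divided by its 75th percentile. Values were floored at 0.01 and log2 was taken. With several features per gene, the brightest that carried no other symbol was used. The 2-fold cutoff compares linear means without a test. Tests were by limma 3.58.1 in R 4.3.3 (lmFit, eBayes, no block), tested on simulated data, with Benjamini-Hochberg adjustment over 18378 features. Members, lists and tests were chosen with earlier results of these data known. Of 102 list entries 97 were found, 6 by a RefSeq synonym.

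Named were *SOX2*, every collagen gene, and up to 4 genes per list by size of change, others having been picked after their values were seen. Alternatives covered scaling, background correction, floors, filters, probe averaging, cutoffs, variance models, a replicate block and each array left out. The number of arrays limits the precision.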

Additional observations from a re-analysis of the deposited data

How the results depend on the processing

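Of 23 alternatives, 12 altered the log2 change of the 11 collagen genes with an unadjusted p under 0.05 and 21 altered their p. Cutoffs, S/N filters, floors and other variance models leave the log2 change of these genes as it is and say nothing of its sign. Dropping the flag filter moved it slightly, for *COL4A1* from -1.63 to -1.62. The sign was kept in the 132 altered log2 values. The 11 genes were picked by their p on these same arrays, and some alternatives shift all genes alike. Keeping the sign or the p was thus largely fixed in advance and is no support for the changes. Not every p was kept, with an unadjusted limma p of 0.129 for *COL18A1* under median scaling and 0.659 for *COL24A1* under normexp. *COL4A1*, *COL4A2*, *COL4A5*, *COL15A1* and *COL27A1* passed it in each fit that held them.

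The count of collagen genes 2-fold lower was 4, and 0 with normexp background correction, 9 at a 1.5-fold and 1 at a 3-fold cutoff. Leaving out 1 array gave 2 (without knockdown array 2) to 6, and 0 to 1 collagen genes 2-fold higher. The count at an adjusted p under 0.05 was 5 with median scaling, no further scaling or the authors' values, and 4 with eBayes trend, against 0. The count at an unadjusted p under 0.05 was 11, and 5 (without knockdown array 2) to 14 with 1 array left out. With the replicate number as a block it was 7, and the block changed no other count. The deviations of arrays of the same number correlated at -0.499, so the crossed pairing was added after seeing the data, and gave 16 collagen genes at an unadjusted p under 0.05 and 0 at an adjusted one.

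Features over 2-fold in either direction numbered 438, and 176 with normexp, 288 with a floor of 0.05, 1055 without an S/N filter, 245 with S/N over 3 on all arrays, 1812 and 94 at 1.5-fold and 3-fold, and 622 to 935 with 1 array left out. The cause was not tested, beyond what the cutoffs and filters fix themselves. A bound for genes dim in 1 group could not be had, since 0 collagen genes met its condition. The filter on mean S/N was chosen after seeing the data and gave 5 collagen genes 2-fold lower. Dim signals limit the 11 genes not kept and, among the genes kept, at least *COL6A3*, *COL5A2*, *COL5A3* and *COL8A2*.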
